A study of Arabidopsis thaliana with 6 samples.

Results

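The sulphur starvation response genes are a set of 10 Arabidopsis thaliana genes, taken by locus from the 24438 genes of the deposited expression table. They are the regulator SLIM1 (AT1G73730), SDI1 (AT5G48850), SDI2 (AT1G04770), LSU1 (AT3G49580), LSU2 (AT5G24660), LSU3 (AT3G49570), LSU4 (AT5G24655), GGCT2;1 (AT5G26220), BGLU28 (AT2G44460) and SHM7 (AT1G36370). All 10 had a row in the table. The set was chosen with earlier results of these data known, so its counts and medians below are not independent evidence. The study set roots of plants given ionic aluminium beside roots of plants given aluminium oxide nanoparticles (nAl2O3) and control roots, with 2 RNA-seq libraries in each of the 3 groups, and asked how the dissolved and the particulate form of the metal differ in their molecular effects. All plants were wild type of the ecotype Columbia at the vegetative stage, and roots were taken. The title of nanoparticle replicate 2 put it in the nanoparticle group, while its other labels spell the compound nAl2O4. The sources used here give neither dose, exposure time nor growth medium. Since no label ties the replicates of a group to separate plants or cultures, each p-value speaks of the spread among these libraries, and that spread may be technical.

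Plants take up sulphur as sulphate and build it into cysteine, methionine, glutathione and, in the cabbage family, glucosinolates. When sulphate runs short, a transcription factor of the EIN3 family, SLIM1 (also EIL3), raises transcripts for sulphate uptake and for enzymes and small proteins that save or release sulphur. The cysteine precursor O-acetylserine accumulates in that state, and SDI1, SDI2, LSU1, GGCT2;1 and SHM7 are known, together with the reductase gene APR3, as a cluster of transcripts that follow its level. In sulphur-starved Arabidopsis roots these genes serve as markers of the starvation state.

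Levels are the authors' deposited RPKM values, which count reads per length of the gene model and per total of the library, so that genes can be set side by side. Whole reads were recovered from the steps of these values. Library totals lay between 12318429 and 14489392 reads, and 18499 to 18893 genes had an RPKM of 1 or more. Log2 fold changes are differences of mean log2(RPKM + 1), a scale on which the change of a low gene comes out too small, ± the standard error from limma. Its adjusted p (Benjamini-Hochberg) covers the 19648 genes that reached an RPKM of 1 in 2 or more libraries. Folds are ratios of reads per library total over the 2 libraries of each group, with 95% intervals that cover counting error only. Where the lower group had 0 reads, 3 reads were put in their place. The fold is then given as "at least", without the counting error of the higher group. The control libraries lay further apart than the others, with a median SD over genes of 0.257 on the log2 scale, against 0.16 in ion and 0.095 in nanoparticle libraries. The summed RPKM of 6 root markers was 1059 and 1306 in ion, 1400 and 1456 in nanoparticle and 1170 and 1590 in control libraries. Of these 6, none was at 0 in any library, and 1 of them, EXPA7 of root hair cells, fell in ion against control. The summed RPKM of 8 photosynthesis genes, which mark shoot tissue, was 27.3 and 30.7 in ion, 58.4 and 165 in nanoparticle and 120 and 141 in control libraries. Of these 8 genes none was at 0 in any library. In ion against control 4 of the 8 fell and 0 rose, where 10.3% of all tested genes were lower and 12.3% higher. The part of these differences in the results below was not tested. In RNA of root tissue, a change in the number of cells that hold a transcript and a change in the transcript per cell cannot be told apart.

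Ionic aluminium raised 9 of the 10 genes above control roots, and SLIM1 was the exception. LSU1 and BGLU28 had 0 reads in control roots, so their folds are bounds only. The other rises ran from 2.26-fold in SHM7 to 186-fold in LSU2 (95% interval 112 to 333). Among all genes tested in ion against control, 22.6% passed, 12.3% as higher and 10.3% as lower. The 10 genes had a median log2 fold change of 3.49, against 0.06 over all genes tested. With the 2 genes that had 0 reads in control roots set at the log2 of their lower bounds in reads, it was 4.73. That value mixes 2 measures, since the other genes stay on the log2(RPKM + 1) scale, and it has no counterpart over all genes. All 10 entered the test. The nanoparticle and control libraries alone would have let 5 of them in, while SDI1, LSU1, LSU3, GGCT2;1 and BGLU28 entered through their ion values. For these the filter itself favoured a high ion level, so their calls are not independent of it. The remaining 5, SLIM1, SDI2, LSU2, LSU4 and SHM7, entered by their values outside the ion group. In the plot of levels by library, the ion libraries stand above all other libraries in 9 panels.

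**Figure D1:**
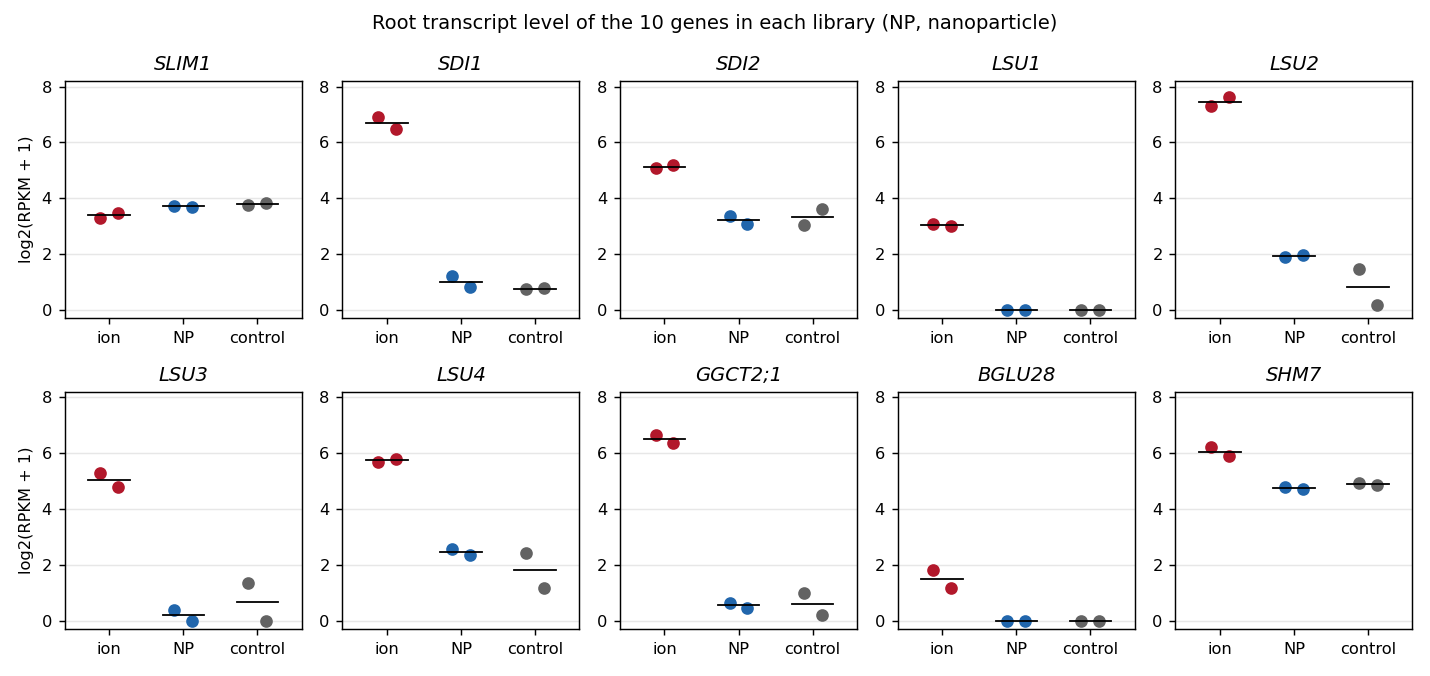
Levels of the 10 genes on a log2(RPKM + 1) axis, with 1 point for each library and a line at the group mean, for ion, nanoparticle (NP) and control roots. In all panels but that of SLIM1 both ion points lie above the other 4 points, and LSU1 and BGLU28 are at 0 outside the ion group.

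SLIM1, the regulator at the head of the response, had 8.84 and 10.1 RPKM in ion roots, 12.3 and 12 RPKM in nanoparticle roots and 12.5 and 13.3 RPKM in control roots. Both ion libraries lay below the other 4 libraries, which were close together. The log2 fold change of ion against control was -0.41 ± 0.18 (limma adjusted p = 0.144), with a 95% interval of -0.83 to 0.02, and that of ion against nanoparticle was -0.33 ± 0.18 (adjusted p = 0.218). Neither passed the test. In Arabidopsis SLIM1 is known to act under sulphur shortage without a matching rise of its own transcript. SLIM1 shares 1 base of annotated exon with AT1G73720, a gene on the opposite strand.

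SDI1 codes for a protein with tetratricopeptide repeats that represses the synthesis of aliphatic glucosinolates. It had 121 and 87.4 RPKM in ion roots, 1.29 and 0.76 RPKM in nanoparticle roots and 0.678 and 0.718 RPKM in control roots. The ion libraries were far above the rest, and the nanoparticle libraries both lay above the control libraries by less than 1 RPKM. SDI1 rose 148-fold in ion against control (95% interval 97.3 to 236; log2 fold change 5.93 ± 0.24, limma adjusted p = 7.52e-05). Its log2 fold change ranked 17 from the top of the 19648 genes tested.

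SDI2, its close relative with the same known role, had 33 and 35.2 RPKM in ion roots, 9.22 and 7.35 RPKM in nanoparticle roots and 7.27 and 11.1 RPKM in control roots. Its ion libraries agreed closely and stood above the others, while the nanoparticle values lay within the range of the control values. SDI2 rose 3.74-fold in ion against control (95% interval 3.29 to 4.26; 1.81 ± 0.24, limma adjusted p = 0.00324). SDI2 shares 352 bases of annotated exon with AT1G04760 on the opposite strand, and no source used here gives the strand setting of the authors' counts, so reads of the 2 genes cannot be told apart there. AT1G04760 itself had 11.5 and 11.9 RPKM in ion, 5.9 and 5.35 RPKM in nanoparticle and 4.16 and 4.41 RPKM in control roots. The part of this neighbour in the values of SDI2 was not tested.

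The order of the SDI genes turned round between the groups. SDI1 held 78.5% and 71.3% of the summed SDI RPKM in the ion libraries, against 12.3% and 9.37% in nanoparticle and 8.53% and 6.05% in control libraries. SDI1 was thus the more abundant of the pair in both ion libraries and the less abundant in the other 4. The longest exact run that the exons of SDI1 and SDI2 share is 17 bases.

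The LSU genes code for small coiled-coil proteins of the cytosol and nucleus that bind many partners, and all 4 rose. LSU2 reached the highest level of the 10 genes, with 157 and 196 RPKM in ion roots, 2.74 and 2.93 RPKM in nanoparticle roots and 1.74 and 0.131 RPKM in control roots. The last of these values stands for 1 read. LSU2 rose 186-fold in ion against control (log2 fold change 6.65 ± 0.4, limma adjusted p = 0.000236) and ranked 10 among the 19648 genes tested. No other gene of the set had a larger log2 fold change. The size varied with the control library used, with a fold of 102.4 (95% interval 60.9 to 188) without control replicate 2. The log2 fold change was 7.28 without replicate 1 of the controls, where 1 read is left, and 6.01 without replicate 2, and the call held in both.

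LSU4, which lies next to LSU2, had 50.3 and 54.8 RPKM in ion roots, 4.97 and 4.05 RPKM in nanoparticle roots and 4.34 and 1.25 RPKM in control roots. The nanoparticle libraries and control replicate 1 lay close together and control replicate 2 below them. LSU4 rose 18.6-fold in ion against control (95% interval 13.6 to 26; 3.95 ± 0.39, limma adjusted p = 0.00116). The log2 fold change was 4.57 (42.1-fold) without control replicate 1 and 3.32 (12.2-fold) without the other control.

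LSU3 had 38.3 and 26.5 RPKM in ion roots, 0.295 and 0 RPKM in nanoparticle roots and 1.54 and 0 RPKM in control roots. Outside the ion group this came to 2 and 0 reads in nanoparticle and 11 and 0 reads in control libraries, so the low groups overlap and their order rests on few reads. LSU3 rose 40.3-fold in ion against control (95% interval 22.3 to 81.4; 4.37 ± 0.45, limma adjusted p = 0.00132). The log2 fold change was 5.04 without control replicate 1, where 0 reads are left, and 3.69 (20.7-fold) without the other control. LSU1, next to LSU3, had 47 and 51 reads in the ion libraries (7.39 and 6.93 RPKM) and 0 reads in each of the other 4. With a floor of 3 reads over the 2 libraries of a group, LSU1 was at least 34.6-fold higher in ion than in control roots (3.03 ± 0.21, limma adjusted p = 0.000365). That bound takes the ion reads as counted, without their counting error.

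The LSU genes sit in 2 tandem pairs, all on the minus strand. On the TAIR10.1 annotation, LSU3 (chr3:18372404-18373147) and LSU1 (chr3:18374908-18375940) follow each other with 1760 bases between them, and LSU4 (chr5:8440601-8441364) and LSU2 (chr5:8443279-8444101) with 1914 bases between them. The other 6 genes are scattered, with SDI1 at chr5:19805437-19807853, GGCT2;1 at chr5:9162969-9164884, SDI2 at chr1:1336274-1337849, SHM7 at chr1:13696042-13698739 and SLIM1 at chr1:27730031-27732683 on the minus strand and BGLU28 at chr2:18346306-18350026 on the plus strand. Within each pair the levels in ion roots were unequal: LSU3 stood above LSU1, and LSU2 above LSU4, in both ion libraries. The genes on the outer sides of the pairs, picked by position, moved less. Beside LSU3, AT3G49560 had a log2 fold change of 0.04 ± 0.17 in ion against control (limma adjusted p = 0.904), and beside LSU1, ATG13 had -0.43 ± 0.16 (adjusted p = 0.0981). EMB2820, beside LSU2, had 0.13 ± 0.22 (limma adjusted p = 0.71). AT5G24650, the nearest gene with a row on the far side of LSU4, rose by 1.23 ± 0.19 (limma adjusted p = 0.00541), to 71.3 and 61.5 RPKM in ion roots, against 30.3 and 25.1 RPKM in control roots.

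The make-up of the LSU family by level also changed with ionic aluminium. LSU2 held 62% and 69% of the family's summed RPKM in ion libraries, against 34.2% and 42% in nanoparticle and 22.8% and 9.5% in control libraries. LSU4 held 19.9% and 19.2% in ion libraries, against 62.1% and 58% in nanoparticle and 56.9% and 90.5% in control libraries. The largest share thus belonged to LSU2 in both ion libraries and to LSU4 in the other 4. The summed level was 252 and 285 RPKM in ion, 8 and 6.99 RPKM in nanoparticle and 7.62 and 1.38 RPKM in control libraries, so the shares outside the ion group rest on few reads. The longest exact run that 2 LSU genes share in their exons is 30 bases, between LSU2 and LSU4, and no source used here says how the authors treated reads with matches in more than 1 gene.

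**Figure D2:**
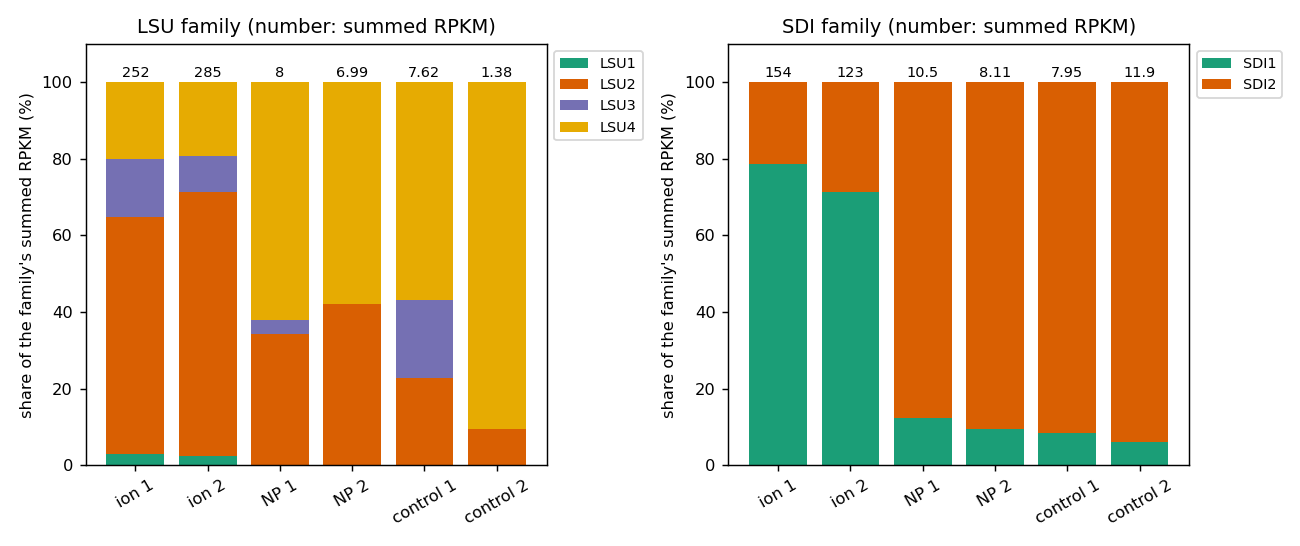
Share in percent of each gene in the summed RPKM of the LSU family (left) and of the SDI pair (right), with 1 bar for each library and the summed RPKM above it. LSU2 and SDI1 hold the largest shares in the ion bars, and LSU4 and SDI2 in the nanoparticle (NP) and control bars.

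GGCT2;1 codes for a gamma-glutamyl cyclotransferase that breaks glutathione down in the cytosol and so frees its cysteine. It had 99.4 and 80.6 RPKM in ion roots, 0.544 and 0.381 RPKM in nanoparticle roots and 0.963 and 0.157 RPKM in control roots. The nanoparticle values lay between the control values. GGCT2;1 rose 156-fold in ion against control (95% interval 94.6 to 280; log2 fold change 5.91 ± 0.29, limma adjusted p = 0.000109). The size of this fold rests on 13 and 2 reads in the control libraries. It was 570 without control replicate 1 (95% interval 158 to 4707) and 92.8 without control replicate 2, and the call held in both.

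BGLU28, a beta-glucosidase gene linked in Arabidopsis to the release of sulphur from glucosinolates, was the least abundant of the 10 in ion roots. It had 61 and 35 reads in the ion libraries (2.54 and 1.26 RPKM) and 0 reads in each of the other 4 libraries. With the floor of 3 reads in control roots, BGLU28 was at least 33.9-fold higher in ion roots (1.5 ± 0.28, limma adjusted p = 0.0111). This bound, too, leaves out the counting error of the ion reads, and the 2 ion libraries differed. The longest run its exons share with those of its neighbour BGLU29, a gene without a row in the deposited table, is 35 bases.

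SHM7, also called MSA1, codes for a nuclear relative of serine hydroxymethyltransferase that affects the supply of S-adenosylmethionine and the build-up of sulphate in shoots. It was the most abundant of the 10 genes outside the ion group. SHM7 had 73.7 and 58.2 RPKM in ion roots, 26.6 and 25.3 RPKM in nanoparticle roots and 29.7 and 28.1 RPKM in control roots. Both nanoparticle libraries lay just below both control libraries. SHM7 rose 2.26-fold in ion against control (95% interval 2.13 to 2.4; 1.15 ± 0.19, limma adjusted p = 0.00683).

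By mean level, the order in ion roots was LSU2 (176 ± 28.3 RPKM, SD, n = 2), SDI1 (104 ± 23.6), GGCT2;1 (90 ± 13.3), SHM7 (65.9 ± 11), LSU4 (52.5 ± 3.21), SDI2 (34.1 ± 1.51), LSU3 (32.4 ± 8.31), SLIM1 (9.49 ± 0.915), LSU1 (7.16 ± 0.325) and BGLU28 (1.9 ± 0.905). The libraries of SDI1 and GGCT2;1 overlapped in this order, as did those of SDI2 and LSU3, and no other neighbours did. In nanoparticle roots SHM7 (25.9 ± 0.961 RPKM, SD, n = 2) led, followed by SLIM1 (12.1 ± 0.208), SDI2 (8.29 ± 1.32), LSU4 (4.51 ± 0.648), LSU2 (2.84 ± 0.139), SDI1 (1.03 ± 0.378), GGCT2;1 (0.462 ± 0.116) and LSU3 (0.147 ± 0.208). No neighbours in that order overlapped, and LSU1 and BGLU28 had 0 reads. In control roots SHM7 (28.9 ± 1.18 RPKM, SD, n = 2), SLIM1 (12.9 ± 0.587) and SDI2 (9.2 ± 2.74) led without overlap. LSU4, LSU2, LSU3, SDI1 and GGCT2;1 followed at means of 2.8 to 0.56 RPKM, each overlapping the next in that order, and LSU1 and BGLU28 had 0 reads. SHM7 and SLIM1 therefore stood above SDI1, GGCT2;1 and LSU2 in nanoparticle and control roots and below them in ion roots.

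The promoters of these genes are shown because 9 of the 10 rose in ion against control. The 250 bases before the annotated start were read from the RefSeq genome TAIR10.1, while the submitters' processing notes name TAIR10. They are printed from 5′ to 3′ in the direction of the gene for the genes with the 3 largest log2 fold changes, LSU2, SDI1 and GGCT2;1, and for LSU1, which has neither motif. Capitals mark matches to GAGAC, the core of a sulphur-responsive element known from Arabidopsis, and to ATGTA, a core bound by proteins of the EIN3 family, both searched on both strands, where they read GTCTC and TACAT.

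LSU2, chr5:8444102-8444351, minus strand: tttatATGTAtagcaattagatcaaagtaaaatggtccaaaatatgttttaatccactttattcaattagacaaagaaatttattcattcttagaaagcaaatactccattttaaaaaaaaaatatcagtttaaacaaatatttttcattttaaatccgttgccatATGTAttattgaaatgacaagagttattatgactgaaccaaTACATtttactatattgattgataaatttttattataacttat
SDI1, chr5:19807854-19808103, minus strand: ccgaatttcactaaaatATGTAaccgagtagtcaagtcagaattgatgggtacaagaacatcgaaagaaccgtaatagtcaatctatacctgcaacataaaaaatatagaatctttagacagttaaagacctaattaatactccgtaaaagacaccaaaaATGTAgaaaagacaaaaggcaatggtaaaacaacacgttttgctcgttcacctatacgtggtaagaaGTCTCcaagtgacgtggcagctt
GGCT2;1, chr5:9164885-9165134, minus strand: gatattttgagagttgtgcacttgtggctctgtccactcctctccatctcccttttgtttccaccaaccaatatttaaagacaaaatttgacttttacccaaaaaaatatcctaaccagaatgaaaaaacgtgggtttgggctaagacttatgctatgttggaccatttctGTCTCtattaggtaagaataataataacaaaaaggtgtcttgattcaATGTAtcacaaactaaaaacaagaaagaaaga
LSU1, chr3:18375941-18376190, minus strand: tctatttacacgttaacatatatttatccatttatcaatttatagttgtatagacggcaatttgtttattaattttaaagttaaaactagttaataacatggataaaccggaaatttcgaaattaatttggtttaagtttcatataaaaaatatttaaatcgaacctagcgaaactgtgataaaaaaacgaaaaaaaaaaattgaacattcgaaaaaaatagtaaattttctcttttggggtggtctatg

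GAGAC was found before 5 of the 10 genes, SLIM1, SDI1, LSU4, GGCT2;1 and BGLU28, and in 25.7% of 23675 windows of the same length before genes of the table. ATGTA was found before 6 of the 10, SDI1, LSU2, LSU3, LSU4, GGCT2;1 and BGLU28, and in 52.2% of all windows. No 2 matches overlapped. SDI1, LSU4, GGCT2;1 and BGLU28 held both motifs, and SDI2, LSU1 and SHM7 held neither. LSU2 had the largest rise with 3 matches to ATGTA and none to GAGAC, and LSU1, SDI2 and SHM7 rose with no match. The counts are a description of these windows and were not tested.

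Nanoparticles moved none of the 10 genes past the test against control roots (limma). Over all 19648 genes tested, 0% passed in this comparison, and 1307 had an unadjusted p under 0.05. The 10 genes had a median log2 fold change of -0.02, against -0.03 over all genes. LSU2, at 21 and 23 reads in nanoparticle roots and 14 and 1 reads in control roots, had the largest difference, at 1.12 ± 0.4 (unadjusted p = 0.026, limma adjusted p = 0.595), with a 95% interval of 0.18 to 2.07. LSU4, at 36 and 30 reads in nanoparticle roots and 33 and 9 reads in control roots, had 0.66 ± 0.39 (limma adjusted p = 0.595). In both genes the control libraries lay further apart than the nanoparticle libraries. Without control replicate 1, LSU2 (1.76 ± 0.2, limma adjusted p = 0.00674) and LSU4 (1.29 ± 0.2, adjusted p = 0.014) passed as higher. That fit has 1 control library, which is assumed to vary like the ion and nanoparticle libraries, although the control group had the widest spread, and it called 2018 genes higher and 1408 lower over all genes.

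The other 8 genes had differences from -0.49 to 0.24 between nanoparticle and control roots. This comparison shares its control libraries with that of ion roots. SDI1 had 0.24 ± 0.24 (95% interval -0.33 to 0.82, limma adjusted p = 0.689), SLIM1 -0.08 ± 0.18 (adjusted p = 0.862), SHM7 -0.15 ± 0.19 (adjusted p = 0.741) and SDI2 -0.12 ± 0.24 (adjusted p = 0.847). GGCT2;1, with 7 and 5 reads in nanoparticle and 13 and 2 reads in control libraries, had -0.05 ± 0.29 (limma adjusted p = 0.953). LSU3 had -0.49 ± 0.45 (limma adjusted p = 0.668). LSU1 and BGLU28 had 0 reads in both groups, so a difference below the floor of 3 reads was not detectable at this depth.

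Set against nanoparticle roots, ionic aluminium gave the same picture of the 10 genes: 9 were higher, 0 were lower and SLIM1 did not pass. Here too SDI1, LSU1, LSU3, GGCT2;1 and BGLU28 entered the test through their ion values, so their calls are not independent of the filter. SDI2, LSU2, LSU4 and SHM7, which entered by their values outside the ion group, were the rest of the 9. Of all genes tested, 25.3% passed in this comparison, 13.3% as higher and 11.9% as lower. The median over all genes was 0.13, and 0 with median-of-ratios scaling, beside a median of 3.16 over the 10 genes. With 2 of them at the log2 of their lower bounds in reads it was 4.96, a value that again mixes 2 measures. Median-of-ratios scaling turned the split over all genes to 1948 higher and 2769 lower, against 2622 higher and 2347 lower as deposited, and left the 9 calls in place. The 2 comparisons share the ion libraries. GGCT2;1 had the largest log2 fold change of the set here, at 5.95 ± 0.29 (limma adjusted p = 9.27e-05), ahead of SDI1 (5.69 ± 0.24, adjusted p = 7.18e-05) and LSU2 (5.52 ± 0.4, adjusted p = 0.000396). LSU3 had 4.85 ± 0.45 (limma adjusted p = 0.000807), and with 2 reads in the nanoparticle libraries its ratio of 219 has a counting interval of 60.4 to 1818, or 108 (29.9 to 899) without nanoparticle replicate 2, which had 0 reads. LSU1 and BGLU28 were at least 34.3-fold and at least 33.6-fold higher in ion than in nanoparticle roots, by bounds that leave out counting error in the ion reads. SHM7 rose by 1.3 ± 0.19 (limma adjusted p = 0.00395), and SDI2 by 1.93 ± 0.24 (adjusted p = 0.00234). The call of SHM7 was lost without nanoparticle replicate 2 (1.27, limma adjusted p = 0.059), and that of BGLU28 without nanoparticle replicate 1 (1.5, adjusted p = 0.0623) and without nanoparticle replicate 2 (1.5, adjusted p = 0.0755). In the plot of log2 fold changes, the panels of both ion comparisons show the same 9 genes to the right of 0.

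**Figure D3:**
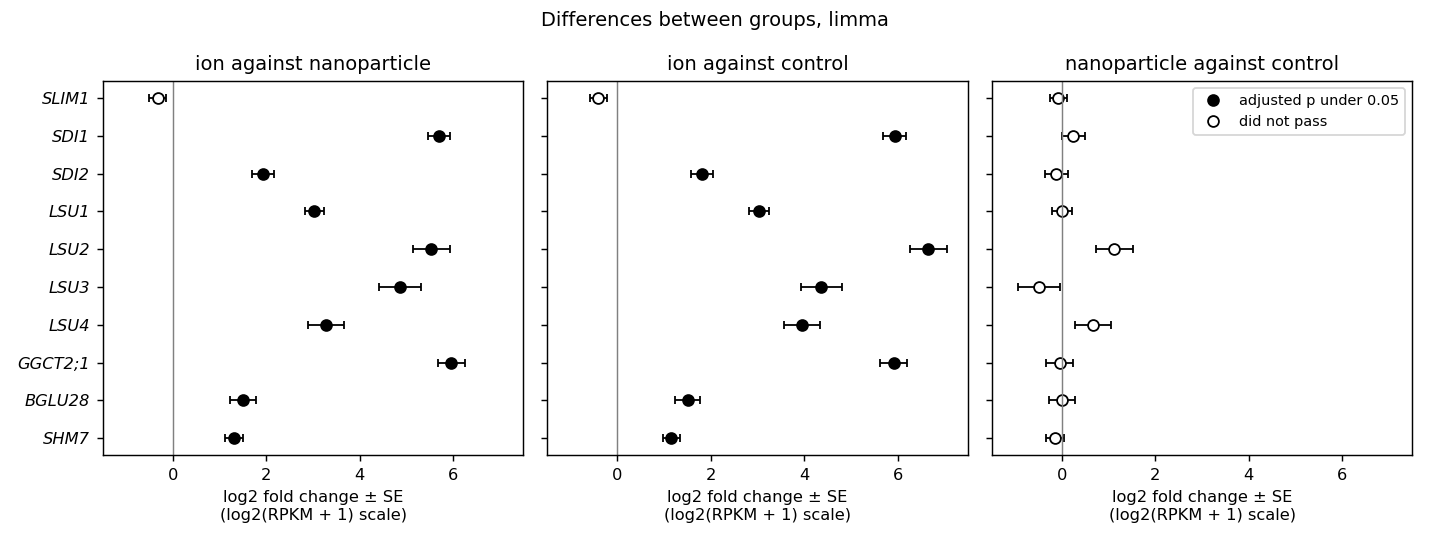
Log2 fold change ± SE of the 10 genes on the log2(RPKM + 1) scale for ion against nanoparticle, ion against control and nanoparticle against control. Filled points passed limma's adjusted p of 0.05. In the ion panels 9 points are filled, from 1.15 (SHM7) to 6.65 (LSU2) against control, and none is filled in the nanoparticle panel.

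Other genes of sulphur metabolism, from lists of pathway and family members, moved in both directions in ion roots. APR3, the gene of the O-acetylserine cluster outside the 10, codes for a plastid reductase of activated sulphate. It had 81.6 and 79.9 RPKM in ion roots, 18.6 and 15 RPKM in nanoparticle roots and 16.4 and 23.6 RPKM in control roots, a rise of 1.99 ± 0.22 in ion against control (limma adjusted p = 0.00188). Among all tested genes 12.3% were higher and 10.3% lower in ion against control, and the list counts below stand beside these shares. Of 16 genes for sulphate reduction and cysteine synthesis 4 rose, 3 fell and 9 did not pass, at a median of 0.39. That median includes SERAT3;2 (0.65 ± 0.23), which did not pass and entered the test through its ion values alone. APR1, a second reductase gene, rose most (3.25 ± 0.32, limma adjusted p = 0.00114), and SERAT3;1, a serine acetyltransferase gene, fell most (-1.21 ± 0.17, adjusted p = 0.00437). Of 12 sulphate transporter genes 10 were tested, of which 4 rose and 3 fell, at a median of 0.23. Among the rises is that of SULTR1;3, which entered the test through its ion values alone, so its call is not independent of the filter. SULTR2;1, a transporter of the vascular tissue, rose most (4.81 ± 0.24, limma adjusted p = 0.000117). The root uptake transporters SULTR1;1 and SULTR1;2, which sulphur shortage is known to raise, both fell. SULTR1;1 had 0 reads in both ion libraries, against 17.1 and 20.7 RPKM in nanoparticle and 14.9 and 9.8 RPKM in control roots (limma adjusted p = 0.000334 in ion against control). SULTR1;2 had 27.6 and 20.6 RPKM in ion roots, 117 and 119 RPKM in nanoparticle roots and 123 and 83.4 RPKM in control roots (-2.04 ± 0.25, limma adjusted p = 0.00232 in ion against control).

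Relatives of the 10 genes gave the following values, beside the 12.3% of all tested genes called higher and the 10.3% called lower in ion against control. Of the SLIM1 paralogues, EIN3, a transcription factor of ethylene signalling, fell in ion against control (-1.07 ± 0.2, limma adjusted p = 0.0124). EIL1 had -0.14 ± 0.18 (limma adjusted p = 0.599), EIL2 and EIL4 were too low to test and EIL5 had no row in the deposited table. Leaving out ion replicate 1 (-1.1) or ion replicate 2 (-1.05) ended the call of EIN3. BGLU30, named with BGLU28 in the breakdown of glucosinolates, had 12.8 and 5.89 RPKM in ion roots, 2.97 and 7.54 RPKM in nanoparticle roots and 3.47 and 3.37 RPKM in control roots (1.14 ± 0.44, limma adjusted p = 0.109 in ion against control). The ion and nanoparticle libraries of BGLU30 overlapped. Of 7 tested genes for myrosinases and relatives of BGLU28 0 rose and 1 fell, at a median of -0.27. The gene that fell was PEN2, a myrosinase of the defence against fungi (-2.26 ± 0.22, limma adjusted p = 0.00114).

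The counts of the next lists, too, stand against those shares of all tested genes, 12.3% higher and 10.3% lower. Among 10 genes of glutathione synthesis and breakdown other than GGCT2;1, 1 rose, 0 fell and 9 did not pass in ion against control, at a median of -0.15. The gene that rose was the peptidase gene GGP1 (0.92 ± 0.24, limma adjusted p = 0.0387). Of 11 tested genes of aliphatic glucosinolate synthesis, the pathway that the SDI proteins repress, 2 rose and 0 fell, at a median of 1. That median includes FMOGSOX1 (1.1 ± 0.35), which did not pass and entered the test through its ion values alone. CYP79F2, which converts elongated methionine, rose most (1.97 ± 0.36, limma adjusted p = 0.0105), and its call was lost without ion replicate 2 (1.55). Of the other 6 serine hydroxymethyltransferase genes 2 rose and 1 fell, at a median of 0.54. SHM4 rose most (1.41 ± 0.36, limma adjusted p = 0.0329) and SHM6 fell (-0.67 ± 0.19, adjusted p = 0.0493). Of 4 S-adenosylmethionine synthetase genes 2 rose, at a median of 0.96. They were MAT3 (1.51 ± 0.36, limma adjusted p = 0.0252) and MAT4 (1.38 ± 0.2, adjusted p = 0.00482), and the call of MAT4 held in all 13 alternative settings. Leaving out ion replicate 1 or ion replicate 2 ended the calls of GGP1 (1.17 and 0.67), SHM4 (1.55 and 1.26), SHM6 (-0.49 and -0.85) and MAT3 (1.65 and 1.38). Leaving out nanoparticle replicate 1 or nanoparticle replicate 2, which lowers the degrees of freedom and keeps the fold changes, ended the same 4 calls, and the call of GGP1 was also lost without control replicate 2 (0.78) and that of SHM6 without control replicate 1 (-0.63) or control replicate 2 (-0.71). The other settings that ended a call were no filter for GGP1, SHM4 and SHM6 and a fit of only the 2 groups for these and MAT3. Both other scalings also did so for GGP1, the pseudocount of 0.1 for SHM6, and the replicate block for GGP1 and SHM6.

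Against nanoparticle roots, where 13.3% of all tested genes were higher and 11.9% lower, the ion roots had 4 sulphate transporter genes that rose and 4 that fell of 10 tested, SULTR1;3 again among them, led by SULTR2;1 (5.07 ± 0.24, limma adjusted p = 8.87e-05) and by SULTR1;1 with its 0 reads in ion libraries (adjusted p = 0.000163). The reduction and cysteine list had 4 and 2 of 16, led by APR1 (3.01 ± 0.32, limma adjusted p = 0.00129) and SERAT3;1 (-1.26 ± 0.17, adjusted p = 0.00342), and APR3 rose (2.21 ± 0.22, adjusted p = 0.00111). EIN3 fell (-0.77 ± 0.2, limma adjusted p = 0.0358). In the glutathione list 2 of 10 rose, led by GGCT2;2 (1.31 ± 0.23, limma adjusted p = 0.00839), a sister gene of GGCT2;1. CYP79F2 (1.58 ± 0.36, adjusted p = 0.0209) led 2 rises of 11 in the glucosinolate list. BGLU22 rose (1.06 ± 0.29, limma adjusted p = 0.0377) and PEN2 fell (-2.07 ± 0.22, adjusted p = 0.00134) among 7 genes. SHM6 fell (-0.71 ± 0.19, limma adjusted p = 0.0389), and MAT4 rose (1.31 ± 0.2, adjusted p = 0.00544). Leaving out nanoparticle replicate 1 or nanoparticle replicate 2 ended the calls of EIN3 (-0.82 and -0.71), CYP79F2 (1.61 and 1.55), BGLU22 (1.1 and 1.01), SHM6 (-0.74 and -0.68) and MAT4 (1.37 and 1.25). Without nanoparticle replicate 2 those of GGCT2;2 (1.16) and SERAT3;1 (-1.2) were lost too. Without ion replicate 1 the calls of EIN3 (-0.79), SHM6 (-0.52) and GGCT2;2 (1.21) were lost, and without ion replicate 2 those of EIN3 (-0.74), SHM6 (-0.89), CYP79F2 (1.16) and BGLU22 (0.73). Quantile normalization ended the call of EIN3, median-of-ratios scaling that of BGLU22, and no filter those of BGLU22 and SHM6. MAT3 (0.7) and SHM4 (0.65), which did not pass in the main fit of this comparison, passed as higher in a fit of only the 2 groups. In nanoparticle against control roots, 0 genes of any of these lists passed (limma).

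**Figure D4:**
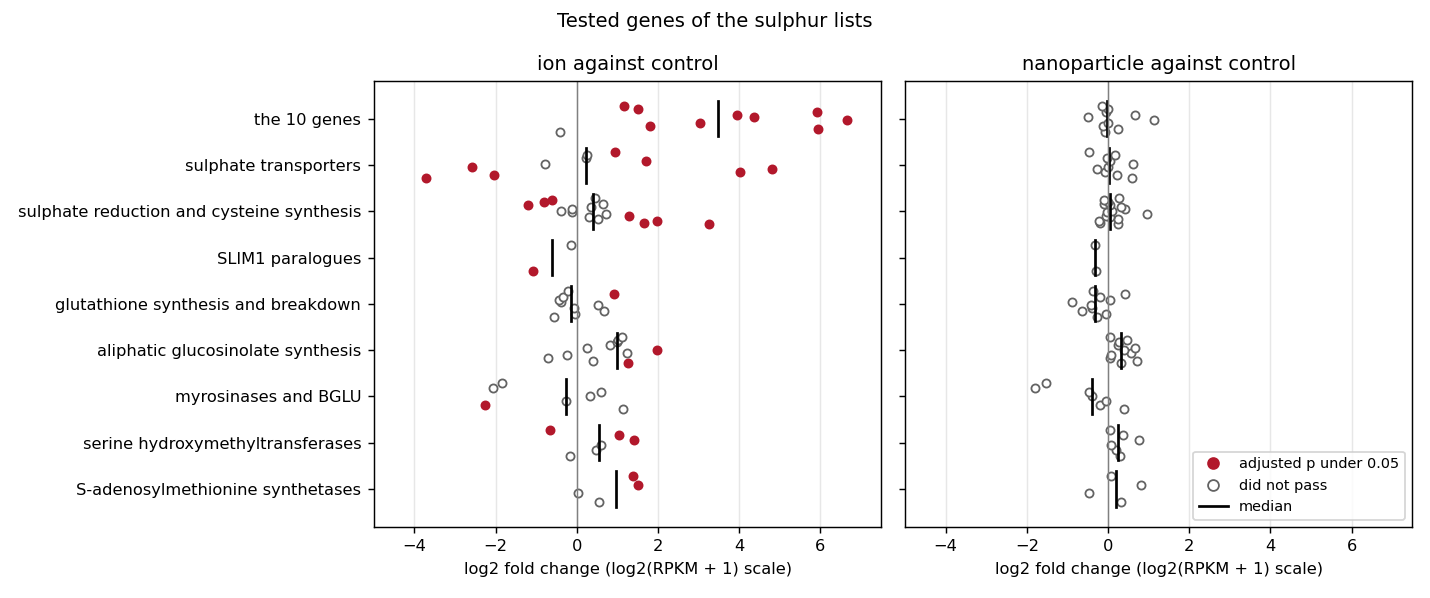
Log2 fold changes of the tested genes of each sulphur list on the log2(RPKM + 1) scale, in ion against control (left) and nanoparticle against control (right), with 1 point for each gene and a bar at the list's median. The 10 genes have a median of 3.49 in the left panel and -0.02 in the right panel, and points that passed lie on both sides of 0 in the transporter and reduction lists.

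The profile of SDI1 over the 6 libraries was nearest to those of genes outside the set that were likewise near 0 in all but the ion libraries. Likeness was measured as the Euclidean distance between log2(RPKM + 1) profiles, each centred on its mean. The 5 nearest of the tested genes outside the set were the microRNA locus MIR827 (distance 0.47), the microRNA locus MIR399c (0.519), AT5G17340 (0.53), AT3G25240 (0.541) and the transcription factor gene WRKY62 (0.678). MIR827 had 61.7 and 58 RPKM in ion roots and 0 in the other 4 libraries. Of the set itself GGCT2;1 was the nearest to SDI1, at 0.676, and SLIM1 the farthest, at 7.16. With 6 libraries that fall into a high and a low level, this is a description of size and shape alone.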

How the data were processed

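Per the labels' protocols, Trizol was used to extract total RNA from roots, and the libraries were built with a NEBNext Ultra kit. The authors deposited 1 RPKM value for each of 24438 genes and 6 libraries. The table's name gives the unit. TopHat2 2.0.12, HTSeq 0.6.0 and TAIR10 are named in the submitters' processing notes without their roles. No source used here gives the strand setting, the annotation version or the rule for reads with matches in more than 1 gene. The 6 columns were matched to samples by group and replicate number, and groups were taken from the titles.

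The RPKM steps gave whole reads, with library totals set by 2403 genes whose annotated length was exact. All 24438 genes came out whole within 1e-06 reads. Where several gene lengths were possible, the smallest at or above a share of 0.3 of the annotated exon length was taken, a share chosen after the summed reads, 99.73% to 99.79% of the totals, were seen. The recovery was tested on simulated data, where the reads of 97.37% of 3960 genes came back. The LSU gene models, 492 to 556 bases against 744 to 886 annotated, are a smaller share of the annotation than any length simulated. The simulation therefore does not cover them. Reads served for folds, bounds and depth only.

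limma 3.58.1 in R 4.3.3 was run on log2(RPKM + 1) with all 3 groups in 1 fit, a mean-variance trend, 3 residual and 3.81 prior degrees of freedom, over the 19648 genes (80.4%) that reached an RPKM of 1 in 2 or more libraries. Tests were two-sided, Benjamini-Hochberg adjusted p under 0.05 passed, and the fit was tested on simulated data. Named were all 10 genes, APR3, the EIN3 family, BGLU30, the largest rise and fall of each list in the ion comparisons, and the 5 genes most like SDI1; the neighbours of the LSU pairs were added by position. SULTR1;2 was named after its values were seen. The members and lists were chosen with earlier results of these data known. Locus names, positions and promoters come from the RefSeq annotation of TAIR10.1, which held 23678 loci of the table. The alternatives were a pseudocount of 0.1, no filter, a filter at RPKM 5, median-of-ratios scaling, quantile normalization, the replicate number as a block, fits of only the 2 groups compared, and leaving out each library in turn.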

Additional observations from a re-analysis of the deposited data

How the results depend on the processing

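Over 13 alternative settings the number of the 10 genes called in ion against control lay between 8 and 9, and in ion against nanoparticle between 7 and 9; the lower counts include that of the filter at RPKM 5, which leaves BGLU28 untested. Over the 10 genes alone, all 129 results in ion against control kept their direction and their side of the threshold, as did 126 of 129 in ion against nanoparticle, where SHM7 and BGLU28 lost calls without a nanoparticle library. In nanoparticle against control the count was 0 except without control replicate 1, where it was 2 (leaving out each library in turn gave 0 to 2). There the direction turned for GGCT2;1 with a pseudocount of 0.1 (0.091), without control replicate 1 (0.34) and without nanoparticle replicate 2 (0.04; range over the left-out libraries -0.43 to 0.34), for LSU3 without control replicate 1 (0.19; range -1.16 to 0.19) and for SDI2 without control replicate 2 (0.16) and nanoparticle replicate 2 (0.03; range -0.39 to 0.16); the cause was not tested, and none of these passed. The calls over all genes in ion against control, 2418 higher and 2028 lower, came to 1433 and 1325 in a fit of only those 2 groups and to 886 to 4314 and 942 to 3418 with 1 library left out. Those in ion against nanoparticle, 2622 and 2347, came to 4669 and 3386 in the fit of 2 groups and to 589 to 4689 and 762 to 3412 with 1 library left out.

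The replicate numbers are shared between groups, but no label says that they mark a common batch. Deviations of same-numbered libraries correlated at 0.075 (ion and nanoparticle), -0.164 (ion and control) and -0.054 (nanoparticle and control). With the replicate block, 9, 9 and 0 of the 10 genes were called in ion against control, ion against nanoparticle and nanoparticle against control, as without it. With it, GGP1 (limma adjusted p = 0.0615) and SHM6 (0.0797) did not pass in ion against control, nor EIN3 (0.0552), BGLU22 (0.0598) and SHM6 (0.0664) in ion against nanoparticle. Depth limits the genes near 0 outside the ion group, where 3 reads in 1 library correspond to an RPKM of 0.207 to 0.244 in a gene model of 1 kilobase. The LSU gene models are shorter, at 492 to 556 bases, so 3 reads stand for a higher RPKM there.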
